A study of Mus musculus with 16 samples.

Results

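The measurements described here are contacts between gene promoters. In promoter-capture Hi-C, DNA that lies close together in the nucleus is cut with HindIII, ligated and sequenced after RNA baits have pulled out the fragments that carry promoters, and each pair of fragments receives a score for how far its reads exceed those expected at its distance. A contact was taken as a promoter pair when the fragment at its other end was itself a baited promoter and the fragments lay at most 1 Mb apart, and a pair reported from both promoters was counted once. Of 260860 listed interactions, which are 259776 different fragment pairs, 21166 met this rule and gave 20303 promoter pairs, against 216995 contacts within 1 Mb whose other end was not baited. The pairs joined 11691 of 20230 baited fragments. Bait pairs just outside the distance limit, at 1000 to 1100 kb, numbered 224 with a median score of 2.54, and those just inside, at 900 to 1000 kb, numbered 307 with a median of 2.43.

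The cells were mouse embryonic stem cells (ESC, day 0), grown in 2i and Lif, and the epiblast-like cells (EpiLC, day 2) made from them. Of 4 lines, DNMT_KO lacked Dnmt1, Dnmt3a and Dnmt3b, TET_KO lacked Tet1, Tet2 and Tet3, and DNMT_WT and TET_WT were their respective unedited parents. The labels give 2 replicates for each of the 8 groups (16 samples), but the scores come as 1 column per group, so no column has a replicate spread, and read depth is not known. The spread used below is that between the 4 lines, which is not full independence because each knock-out derives from its parent, and whether a knock-out is 1 clone or several is not stated. Contacts do not show marker genes, so the cell types were not checked. A score of 5 or more is called a contact, the usual threshold of the CHiCAGO caller that produces such scores. Other-end fragments in the table reached 4001 bp at most, whereas baits reached 694065 bp, so a pair of long promoter fragments could not be listed. The 863 pairs listed from both promoters were measured in both directions, whose scores had rank correlations between 0.431 and 0.592 in the 8 columns (843 to 854 pairs). In DNMT_WT ESC, 357 of these were called from both sides and 242 from one. In all, 2255 pairs (11.1%) lacked a score in at least 1 column, against 0.729% of the other contacts, and DNMT_WT ESC lacked the most.

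Promoters can contact one another because they share a transcription site or a chromatin loop, because they sit in the same Polycomb-bound or otherwise silent compartment, or because cohesin and CTCF bring their domain together. Neighbouring genes of one family, such as olfactory receptors, keratins, histones and protocadherins, are known for such contacts. Most broadly expressed genes have promoters rich in CpG dinucleotides, the target of the DNA methyltransferases Dnmt1, Dnmt3a and Dnmt3b and, once methylated, of the Tet oxidases, and genome methylation is low in 2i-grown cells and rises in epiblast-like cells.

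Promoter sequences of 3 pairs are shown because these pairs give the strongest contact, the rise with the lowest adjusted p and the largest fall between the stages. Each is the 150 bases before the annotated start of the gene, 5′ to 3′ on the gene's strand, from RefSeq on GRCm38.p6, with each CG dinucleotide in capitals. H13 (chr2:152669311-152669460, plus strand) and Bcl2l1 (chr2:152831729-152831878, minus strand) form the pair with the highest lowest score. Ffar2 (chr7:30823776-30823925, minus) and Fxyd5 (chr7:31042332-31042481, minus) form a pair that rose, and Olfr1115 (chr2:87251690-87251839, plus) and Olfr1135 (chr2:87672366-87672515, minus) a pair that fell.
H13: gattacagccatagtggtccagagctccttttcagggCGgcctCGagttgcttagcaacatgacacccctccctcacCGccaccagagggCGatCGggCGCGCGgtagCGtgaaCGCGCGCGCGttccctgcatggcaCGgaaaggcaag
Bcl2l1: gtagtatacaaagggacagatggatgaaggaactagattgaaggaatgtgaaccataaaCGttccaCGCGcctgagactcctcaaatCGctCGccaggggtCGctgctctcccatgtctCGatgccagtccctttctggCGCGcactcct
Ffar2: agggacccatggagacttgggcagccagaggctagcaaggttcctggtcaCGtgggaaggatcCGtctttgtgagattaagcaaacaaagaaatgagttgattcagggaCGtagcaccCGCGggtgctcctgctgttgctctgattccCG
Fxyd5: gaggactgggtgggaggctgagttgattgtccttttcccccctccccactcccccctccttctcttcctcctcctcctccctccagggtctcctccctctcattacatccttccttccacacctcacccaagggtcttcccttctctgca
Olfr1115: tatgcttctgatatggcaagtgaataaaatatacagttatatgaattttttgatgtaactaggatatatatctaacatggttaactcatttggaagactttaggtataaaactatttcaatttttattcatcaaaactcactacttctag
Olfr1135: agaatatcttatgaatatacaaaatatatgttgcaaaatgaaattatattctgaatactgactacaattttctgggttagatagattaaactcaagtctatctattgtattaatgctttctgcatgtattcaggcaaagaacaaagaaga
The H13 stretch holds 15 CG dinucleotides, that of Bcl2l1 9 and that of Ffar2 6, whereas Fxyd5, Olfr1115 and Olfr1135 hold 0. Among 32851 promoters in the same RefSeq table, 85.7% have at least 1 CG in this stretch and the median is 4. Among its 948 olfactory receptor promoters, 59% have none.

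The strongest pairs were called in every column. H13, which encodes signal peptide peptidase, and Bcl2l1, which encodes the anti-apoptotic protein Bcl-xL, lie 169 kb apart. The line DNMT_WT scored 52.9 in ESC and 35.1 in EpiLC, DNMT_KO 35.6 and 56.4, TET_WT 70.1 and 34.6, and TET_KO 56.2 and 34.9, so the stages overlapped. Gm9894 and the zinc-finger gene Zfp493, 5.79 kb apart, scored between 33.4 and 81.7, and both TET_WT columns were the highest. The neighbouring olfactory receptor genes Olfr854 and Olfr855 scored 25.3 to 41.9. Procr, the endothelial protein C receptor, and the metalloproteinase gene Mmp24 scored 24.9 to 47.4 at 17.5 kb. Intu and the heat-shock gene Hspa4l scored 24.2 to 38.2 at 210 kb, and 2310030N02Rik and Trp53inp1, which encodes a p53-induced nuclear protein, scored 23.8 to 36.0 at 82.4 kb. The other 4 of the 10 pairs with the highest lowest score had a copy of a small RNA gene at an end.

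Promoter pairs were called in more columns than other contacts were. All 8 columns called 2298 pairs (11.3%), against 6.82% of other contacts, and exactly 1 column called 32.7%, against 43.3%. Calls at both stages were made for 53.9% of the pairs, against 43.6% of other contacts, while 22.8% were called in ESC columns alone and 23.2% in EpiLC columns alone. On the inverse hyperbolic sine (asinh) scale of the scores, quantile-normalised, the mean over the pairs exceeded that of other contacts of the same distances in 8 of 8 columns, by 0.15 on average (SD 0.05, range 0.08 to 0.21). With other-end fragment length matched as well, the difference was 0.13. Both values rest on contacts scored in every column, which left out 11.1% of the pairs and 0.729% of other contacts. Both ends of a promoter pair were baited, so it could be captured from either end, unlike the other contacts. Whether this accounts for the higher scores and the larger share called in all columns was not tested. Rank correlations (Spearman) between columns, given as a description over pairs that share columns and baits, ranged from 0.361 to 0.621.

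The median distance of the pairs was 244 kb (quartiles 126 and 413 kb), against 256 kb for other contacts. Of 156990 possible pairs of baited fragments within 1 Mb that the table could list, 12.9% were listed. The share was 20.4% below 100 kb, 24.4% at 100 to 200 kb and 2.24% at 900 to 1000 kb. The share of listed pairs called in all 8 columns fell from 20% below 100 kb to 0.326% in the farthest bin. Pairs with no other baited fragment between them were listed in 17.5% of cases, against 20.3% of all possible pairs at the same distances, and those with 1 to 5 between them in 19.4%, against 18.1%. Genes facing each other were listed in 14.3% of cases, against 12.9%.

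**Figure D1:**
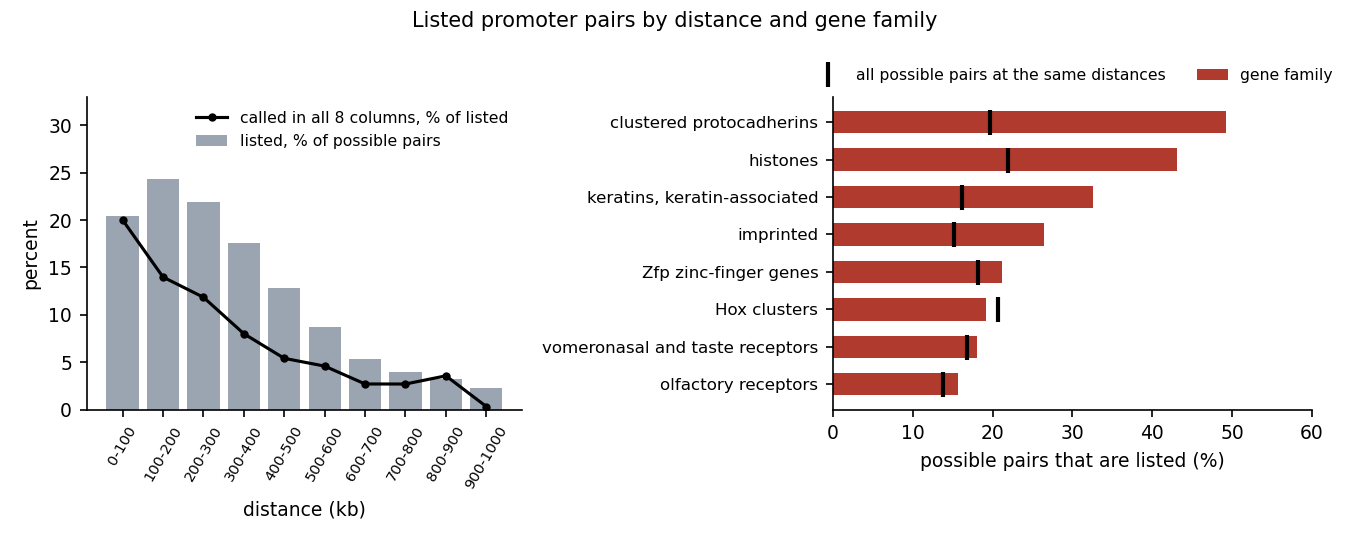
Left: share of possible promoter pairs that are listed (bars) and share of listed pairs called in all 8 columns (line), both in percent, against distance in kb. Right: share of possible pairs within a gene family that are listed (bars, percent), with the share of all possible pairs at the same distances as a black tick. Protocadherins (49.2%), histones (43.1%) and keratins (32.5%) stand farthest above their ticks, and Hox genes stand below theirs.

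Protocadherin, histone and keratin pairs were listed in a larger share than all possible pairs at the same distances, and Hox pairs in a smaller one. These differences were not tested. Clustered protocadherins, adhesion proteins of neurons, had 62 of 126 possible pairs listed (49.2%, against 19.7% at the same distances). Replication-dependent histone genes, which supply nucleosomes in S phase, had 66 of 153 (43.1%, against 21.9%). Keratin and keratin-associated genes, structural proteins of skin and hair, had 274 of 842 (32.5%, against 16.2%). Olfactory receptor genes had 1378 of 8787 (15.7%, against 13.8%), zinc-finger genes named Zfp 66 of 312 (21.2%, against 18.2%), imprinted genes 9 of 34 and Hox genes 13 of 68 (19.1%, against 20.6%). Naive pluripotency genes had 1 possible pair among themselves and 0 listed, and the formative and primed list and the mesoderm and endoderm list had no possible pair among themselves.

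Partners were unevenly shared. The median promoter had 2 listed promoter partners, 4383 had 1, and 757 (6.48%) had 10 or more. The highest number was 49, at Zbtb32, a zinc-finger repressor of lymphocytes, out of 65 possible partners. The DNA-repair gene Ercc1 had 48 of 58, Gm20512 47 of 56, the hair keratin gene Krt35 46 of 101, the skin gene Dmkn 46 of 65, the RNA-binding gene Fxr2 46 of 91, Krt34 45 of 97 and Arhgap33 45 of 67. The 2298 pairs called in all 8 columns linked 2660 promoters into 696 groups, of which 348 held a single pair. The largest, with 51 promoters, spanned chr7:18880356-19966842 around Ercc1, Ercc2, the muscle creatine kinase gene Ckm and Relb. Next were 41 promoters at chr7:30229647-31120797, with Ffar1 to Ffar3, Fxyd genes and Zbtb32, and 37 at chr11:99416209-100299436, mostly keratin and keratin-associated genes. Groups of 23 (chr8:83665351-84626737, with Prkaca and Nanos3), 22 (chr11:69238376-69948940, with Polr2a and Fxr2) and 21 (chr4:43024410-43876309, with Tesk1 and Creb3) followed.

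Calls inside the 3 largest groups differed between stages in different directions. Within the Ercc1 group, 137, 114, 159 and 147 of 261 listed pairs reached the threshold in ESC (lines in the order DNMT_WT, DNMT_KO, TET_WT, TET_KO, as from here on) and 190, 197, 194 and 177 in EpiLC. Every EpiLC column lay above every ESC column there. Within the Ffar group, 154, 139, 162 and 169 of 265 were called in ESC and 197, 175, 170 and 186 in EpiLC. Here the stages barely missed overlapping, with 169 as the highest ESC and 170 as the lowest EpiLC column. Within the keratin group, 223, 227, 231 and 219 of 305 were called in ESC and 163, 155, 185 and 149 in EpiLC, the reverse order without overlap. In the Polr2a group the stages overlapped, at 44, 37, 41 and 39 of 59 in ESC and 45, 43, 41 and 43 in EpiLC. They overlapped in the Prkaca and Tesk1 groups as well. Over all promoter pairs scored in each column, 39.6% to 49.4% were called in ESC and 41.9% to 48.7% in EpiLC. The groups were chosen by their calls in these columns, so these counts are a description.

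Whether promoter pairs became more or fewer between the stages was asked first by counting calls. ESC columns called 9420, 7690, 8825 and 8204 pairs, and EpiLC columns 8753, 9530, 8248 and 9075. The stages overlapped, with means of 8535 ± 751 and 8902 ± 540 (SD, n = 4 lines), and 2 of 4 lines were higher in EpiLC (p = 0.429 by a two-sided exact permutation test, which has 70 arrangements of the columns). As a share of all called contacts within 1 Mb, the pairs made up 11.1%, 9.86%, 10.7% and 9.26% in ESC and 11.0%, 11.6%, 9.36% and 9.58% in EpiLC (exact permutation p = 0.83). Both parental lines had fewer called pairs in EpiLC and both knock-out lines had more. At 800 to 900 kb, ESC columns called 101, 86, 112 and 124 pairs against 148, 156, 138 and 155 for EpiLC, and this was the only one of 10 distance bins in which the stages did not overlap. It is 1 of 10 bins examined, and other contacts were not counted by bin. Whether it is particular to promoter pairs was therefore not tested. The EpiLC minus ESC difference of the mean asinh score, relative to other contacts at the same distances, was -0.0095 ± 0.088 (SD, n = 4 lines, exact sign-flip permutation p = 0.75, smallest possible 0.125). It covers only contacts scored in every column.

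**Figure D2:**
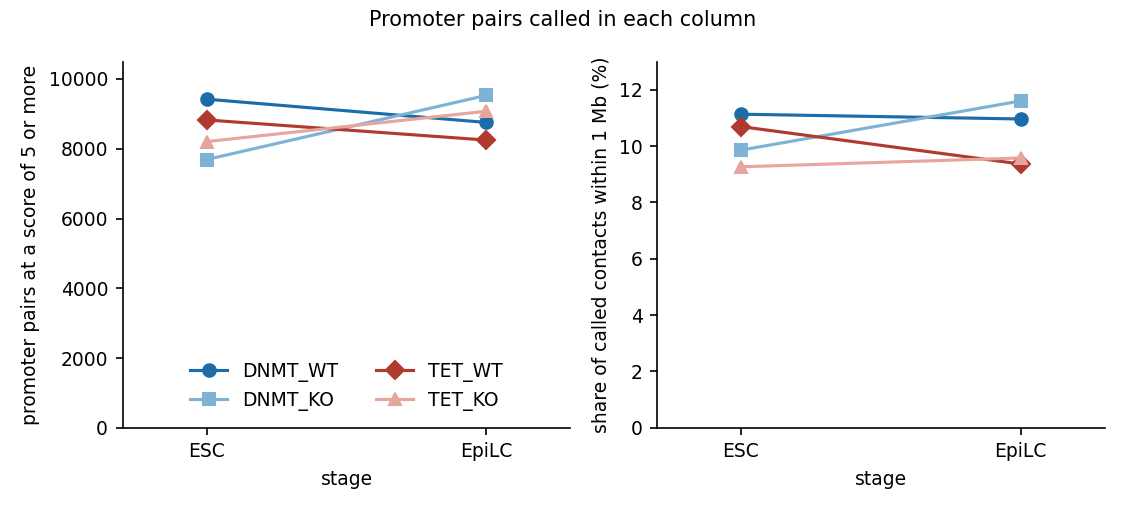
Number of promoter pairs at a score of 5 or more (left) and their share of all called contacts within 1 Mb in percent (right), by stage. Each line joins the ESC and EpiLC columns of 1 cell line, with no replicate error. The parents DNMT_WT and TET_WT fall and the knock-outs DNMT_KO (7690 to 9530) and TET_KO (8204 to 9075) rise in number.

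Single pairs were tested with limma on quantile-normalised asinh scores, with the line as a block and Benjamini-Hochberg adjustment over 243923 contacts within chromosomes. Of 18048 promoter pairs with all scores, 47 rose in EpiLC (0.26%) and 26 fell (0.144%), against 0.228% and 0.121% of all contacts tested. These shares lie close to the background. ESC and EpiLC columns did not overlap for 65 of these 73 pairs. Over all tested pairs, columns were without overlap in 4.02% with EpiLC above ESC and in 5.38% with EpiLC below, against 3.95% and 4.77% of all contacts tested. The median difference was -0.02, against -0.0048 over all contacts, with a median standard error of 0.23. Every one of the 73 kept its direction in each alternative fit that included it. Those fits reuse the columns in which the pairs were chosen, so this is no separate support. The calls rest on all 4 lines: without DNMT_WT 1 pair rose and 0 fell, and without DNMT_KO, TET_WT or TET_KO 0 pairs passed in either direction. Without the line as a block 14 rose and 8 fell. At an unadjusted limma p under 0.05, 1484 pairs were higher and 1725 lower in EpiLC with all lines. In the 4 fits that each left out 1 line, these were between 874 and 1423 and between 1170 and 1460. The same counts over all contacts were not made, so whether these unadjusted counts differ from the background cannot be told.

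Chromosome 7 held 19 of the 47 risen pairs and 1 of the 26 fallen ones, among 2616 pairs tested there. Ffar2, a receptor for short-chain fatty acids, took part in 7 of them, Ercc1 and Tnni3 in 3 each, and Cxcl17 in 2. The pair with the lowest adjusted p was Ffar2 with Fxyd5, a regulator of the sodium pump, 217 kb apart. It scored 2.28, 0.714, 3.33 and 2.88 in ESC and 9.97, 8.88, 9.49 and 11.8 in EpiLC. Means were 2.3 ± 1.14 and 10.0 ± 1.26 (SD, n = 4), with no overlap, and the fitted difference was 1.44 on the asinh scale (SE 0.21, adjusted p = 0.0098). Neither of these promoters met the CpG-rich definition given below.

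Ffar2 had 19 listed promoter partners. Of 18 tested, 17 had a positive difference, with a median of 0.81. ESC columns called 4, 4, 8 and 8 of its pairs and EpiLC columns 17, 18, 12 and 14. Besides Fxyd5, the risen partners were Fxyd7 (1.39), Fxyd3 (1.24) and Lgi4 (1.17), then Lsr (1.05), a lipoprotein receptor of tight junctions, the myelin gene Mag (1.00) and Gm17077 (0.74), as asinh differences. The nearest partners did not change by the test: Ffar2 with Ffar3, another fatty-acid receptor 34.0 kb away, scored 12.5 to 18.5 in ESC and 15.7 to 20.3 in EpiLC (adjusted p = 0.652). Zbtb32 in the same group scored 5.66 to 12.9 with Ffar2 in ESC and 4.48 to 9.32 in EpiLC.

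**Figure D3:**
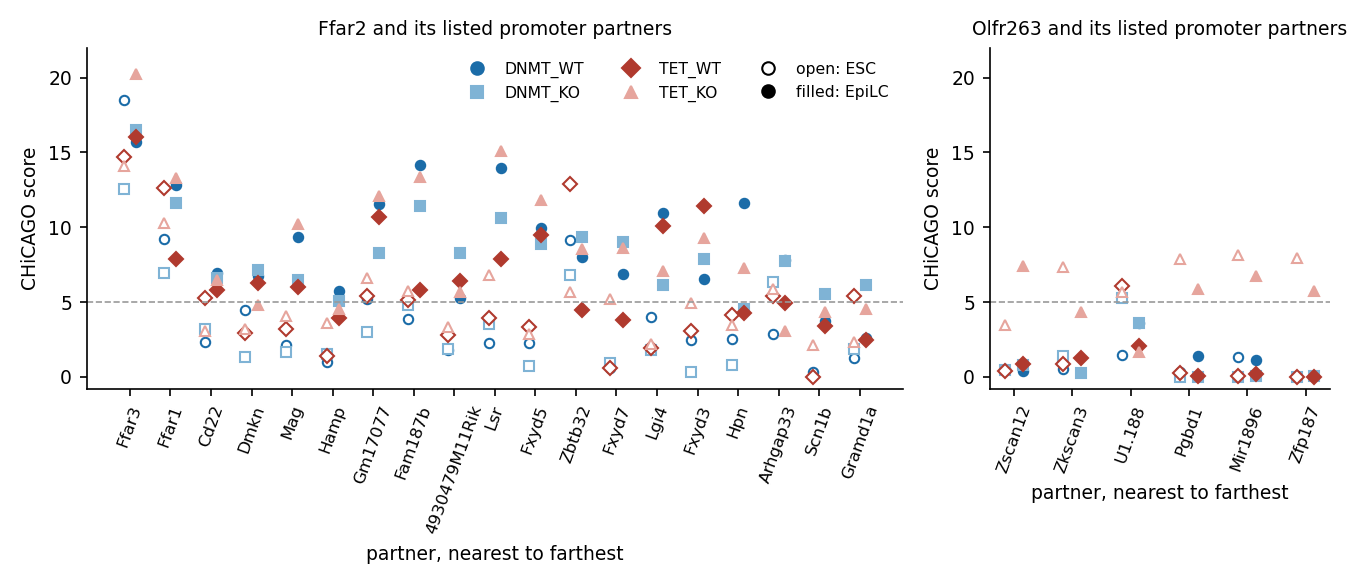
Scores of every listed pair of Ffar2 (left) and of Olfr263 (right), with partners ordered from the nearest to the farthest. Each symbol is 1 column (shape and colour for the line, open for ESC and filled for EpiLC), and the dashed line marks a score of 5. Filled symbols lie above open ones for most Ffar2 partners beyond Ffar3 and Ffar1, while with Olfr263 the TET_KO triangles stand apart from the other lines for most partners.

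Promoters of 3 genes on the same chromosome gave most of the other large rises. Tnni3, which encodes cardiac troponin I, lies on the fragment chr7:4524086-4524363. Its pair with Oscar, an immune receptor of osteoclasts 911 kb away, scored 1.01, 0.705, 0.00 and 0.0342 in ESC and 4.06, 6.06, 6.49 and 13.2 in EpiLC. Its difference of 2.12 (SE 0.40, limma adjusted p = 0.0343) was the largest of the 47 risen pairs. Its pairs with Cnot3, a subunit of the CCR4-NOT deadenylase, (difference 1.31) and with a small RNA copy (1.32) rose as well. Tnni3 pairs were called 6, 0, 0 and 0 times in ESC and 9, 17, 6 and 13 times in EpiLC, among 20 listed. Ercc1, a subunit of the nuclease of nucleotide excision repair, scored 0.439, 1.77, 3.99 and 1.67 with Clptm1 in ESC and 8.20, 7.54, 12.6 and 7.28 in EpiLC (difference 1.5, SE 0.24, adjusted p = 0.0176). Of its 47 tested pairs, which likewise share 1 fragment, 44 had a positive difference, with a median of 0.38.

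The chemokine gene Cxcl17 rose with Pafah1b3 (difference 1.36), a subunit of a platelet-activating factor hydrolase. With Pafah1b3 it scored 6.71, 1.87, 1.39 and 3.11 in ESC and 9.0, 8.32, 10.3 and 24.6 in EpiLC, with the TET_KO column far above the rest. Further pairs among the 10 largest rises were Cog1 with AL645484.1 (1.74), Cenpm, a centromere gene, with Serhl (1.59), and Pnma5 with the mitotic-spindle gene Haus7 on chromosome X (1.27). Cog1 with AL645484.1 sat at the threshold (limma adjusted p = 0.0498) and missed it without scaling between columns (0.0535). Of the 47 risen pairs, 4 joined CpG-rich promoters only, among 1852 such pairs of 18048 tested, a share close to that of all promoter pairs. An olfactory receptor gene was at an end of 1823 tested pairs and of 0 risen ones.

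Of the 26 fallen pairs, 11 joined olfactory receptor genes, the odorant receptors of the nasal epithelium, to each other, among 1253 such pairs tested. Such a gene was at an end of 13, among 1823 of 18048 tested pairs. A gene named Krt or Krtap was at an end of 3, among 631 tested pairs of the keratin list. Chromosome 2, which carries a large olfactory receptor array, held 9, among 1589 pairs tested there. Of these, Myo3b with 1500002O10Rik lies outside that family. Olfr1115 with Olfr1135, 424 kb apart, scored 7.01, 12.1, 5.67 and 3.68 in ESC and 0.81, 1.81, 0.757 and 0.0128 in EpiLC. Both stages were without overlap, and the difference was -1.96 (SE 0.34, adjusted p = 0.026). Olfr1115 fell with 3 partners, and 2 of its 10 tested pairs had a positive difference. Further falls without overlap were Olfr117 with Olfr133 (-1.88), Olfr1214 with Olfr1243 (-1.78), Olfr118 with Gm20408 (-1.77), Olfr1032 with Olfr1054 (-1.54), Olfr1123 with Olfr1140 (-1.52) and Olfr583 with Olfr633 (-1.12). Outside this family, Wars, a tRNA synthetase gene, with Mir382, a microRNA gene of the Dlk1-Dio3 region, scored 10.5, 8.75, 6.47 and 6.22 in ESC and 0.956, 2.71, 1.61 and 0.375 in EpiLC (difference -1.81, SE 0.29, adjusted p = 0.0197). The keratin region added A830036E02Rik with Gm11595 (-1.29) and Krtap1-5 with Gm14178 (-1.13).

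**Figure D4:**
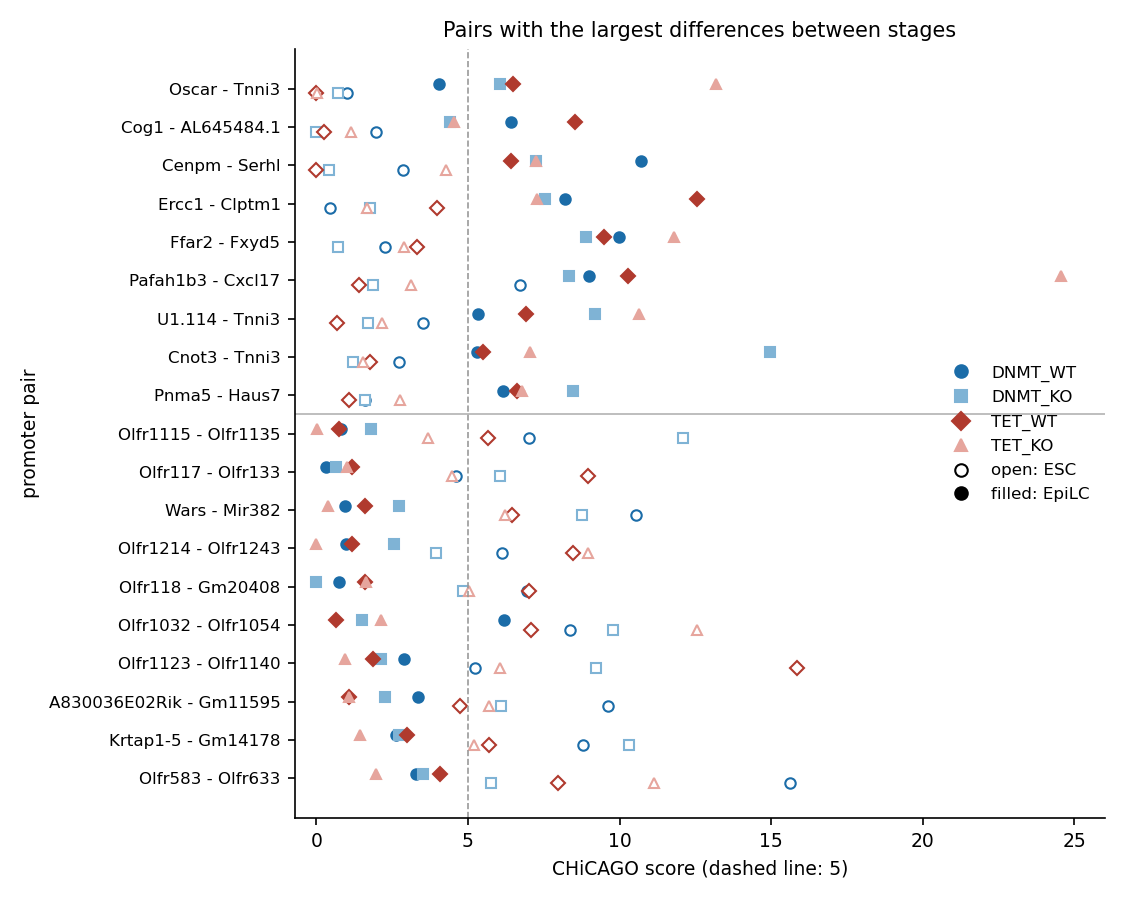
Scores of 9 of the 10 pairs with the largest rise (above the grey line) and the 10 with the largest fall (below it) among pairs that passed the test without overlap. Each symbol is 1 column (shape and colour for the line, open for ESC and filled for EpiLC), and the dashed line marks a score of 5. In each row, all open symbols lie on one side of all filled symbols.

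Over whole families the counts moved as follows. Olfactory receptor pairs were called 632, 705, 528 and 536 times in ESC and 457, 437, 352 and 329 times in EpiLC, lower in 4 of 4 lines and without overlap. Their median difference was -0.25, 76.2% of the 1253 tested were below 0, against 51.7% of all promoter pairs, and 0 passed as risen and 11 as fallen. Keratin pairs were called 144, 160, 166 and 119 times in ESC and 112, 97, 97 and 65 times in EpiLC, again lower in 4 of 4 lines. Their median was -0.34 and 80.7% were below 0, yet 0 of the 274 pairs within this list passed the limma test. Zfp pairs were called 20, 21, 27 and 22 times in ESC and 25, 36, 24 and 32 times in EpiLC. The highest number of histone pairs was 52, in DNMT_WT ESC, and the lowest 16, in DNMT_KO ESC, with 44 in TET_WT and 34 in TET_KO, and EpiLC columns held 29, 42, 39 and 24. Within the protocadherin list ESC columns called 34, 33, 31 and 28 pairs and EpiLC columns 32, 35, 24 and 28.

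Hox genes, the transcription factors that pattern the body axis and classic Polycomb targets, had 13 listed pairs, of which 0 passed. ESC columns called 1, 2, 1 and 2 of them, EpiLC columns 5, 8, 2 and 3. All 8 pairs of the Hoxc cluster had positive differences, from 0.07 to 0.90 (limma adjusted p from 0.174). In 4 of them the stages did not overlap, against 4.02% of all tested pairs with EpiLC above ESC. None of the 8 reached 5 in an ESC column (highest 4.60), and listing requires 5 in some column, which favours positive differences. Each also holds Hoxc11 or Hoxc5, so they are not separate observations. Hoxc11 with Hoxc4 scored 2.31, 1.72, 1.25 and 2.38 in ESC and 4.62, 5.93, 4.77 and 3.96 in EpiLC (difference 0.81, SE 0.28, adjusted p = 0.174). Among the 5 Hoxb pairs, 3 had negative differences, and Hoxb4 with Hoxb1 scored 7.76, 6.74, 4.40 and 4.81 in ESC and 3.54, 4.56, 5.35 and 4.15 in EpiLC. Within the neuroectoderm list, 1 pair was possible and it was listed, Irx3 with Irx5, homeobox neighbours 556 kb apart, with 2.58, 0.655, 3.32 and 4.04 in ESC and 5.03, 9.44, 4.69 and 4.05 in EpiLC (adjusted p = 0.233). Gsx1 with Cdx2, a trophectoderm regulator, reached 5 in DNMT_WT ESC (5.57) and TET_KO EpiLC (5.81) only.

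Among pairs of pluripotency genes with other promoters, Phc1, a Polycomb gene, with Nanog, a core pluripotency factor, scored 6.21, 5.15, 13.1 and 4.79 in ESC and 8.57, 7.73, 10.9 and 6.62 in EpiLC (difference 0.20, SE 0.16, adjusted p = 0.555). Fadd with Fgf4 scored 7.31 to 12.6 in ESC and 5.92 to 12.1 in EpiLC. Of 33 tested pairs with a naive pluripotency gene at an end 0 passed, and of 30 with a formative or primed gene 0 passed, counts too small to differ from the 0.26% risen and 0.144% fallen among all promoter pairs. Lefty1, a Nodal antagonist, with its neighbour Tmem63a scored 36.0, 23.8, 20.3 and 19.8 in ESC and 16.2, 18.6, 20.3 and 18.6 in EpiLC. Among imprinted genes, Sgce with Asb4 scored 19.2 to 22.9 in ESC and 20.1 to 29.4 in EpiLC, and 1700042O10Rik with Cobl fell, from 8.94, 5.22, 18.4 and 9.70 to 2.44, 2.01, 8.05 and 2.31 (difference -1.13, SE 0.18, adjusted p = 0.0179). Zkscan3 with the histone gene Hist1h2bl rose by 0.95 (SE 0.17) and Pcdha3 with Taf7 by 1.03, while the bitter-taste receptor pair Tas2r102 and Tas2r103 fell by 0.92 on the asinh scale.

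Pairs were then split by the CpG content of their promoters. A RefSeq start lay inside 12764 of 20230 baited fragments, and a promoter was called CpG-rich where its window of 300 bases had at least 55% GC and an observed over expected CpG ratio of at least 0.6. Pairs of CpG-rich promoters were listed in 14.9% of possible cases, against 13.3% at the same distances, and pairs of CpG-poor promoters in 14.4%, against 13.4%. Of 2188 CpG-rich pairs, ESC columns called 45.2%, 29.3%, 44.0% and 36.6% and EpiLC columns 44.9%, 52.8%, 41.6% and 47.3%. DNMT_KO held both the lowest column, in ESC, and the highest, in EpiLC. Of 3873 CpG-poor pairs, ESC columns called 47.7%, 45.4%, 42.9% and 42.4% and EpiLC columns 41.7%, 42.4%, 37.9% and 40.1%. These shares count unscored pairs as not called. Over the CpG-poor pairs scored in each column they were 50.4%, 47.0%, 44.1% and 43.4% in ESC against 43.0%, 44.2%, 39.4% and 41.8% for EpiLC, so the stages overlapped, and each line was lower in EpiLC.

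In each line, CpG-rich pairs moved higher relative to CpG-poor pairs from ESC to EpiLC. The difference between the classes, in mean asinh change at the same distances, was 0.13 and 0.35 for the parent and the knock-out of the DNMT family and 0.05 and 0.15 for those of the TET family, with a mean of 0.17 (SD 0.13), and it was positive in 4 of 4 lines also without scaling. The value in DNMT_KO was the highest and that in TET_WT the lowest. In TET_WT both classes changed downwards, CpG-rich pairs by -0.10 and CpG-poor pairs by -0.15. Only 9674 of the 20303 pairs had a RefSeq start in both fragments. Gene families were not separated: the keratin group above holds 26 CpG-poor and 0 CpG-rich promoters, and keratin and olfactory receptor pairs had medians of -0.34 and -0.25. Whether family accounts for the difference between the classes was not tested. Unpaired contacts of CpG-rich promoters changed by 0.01 to 0.04 in the 4 lines and those of CpG-poor promoters by -0.04 to -0.0046. Calls among 65499 such contacts of CpG-rich promoters were lowest in DNMT_KO ESC as well, at 30.7%, against 34.5% to 36.2% in the other ESC columns.

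**Figure D5:**
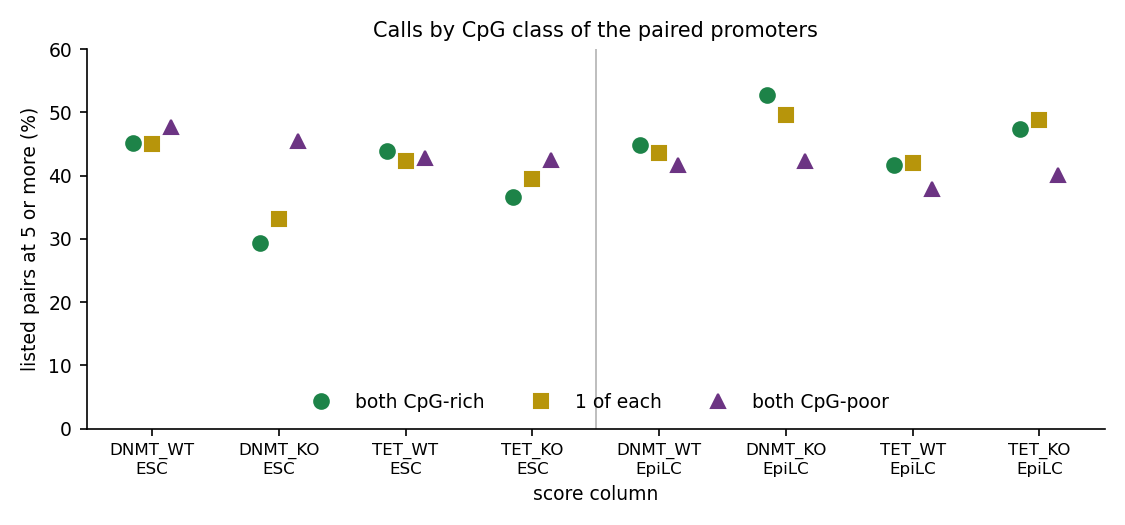
Share of listed promoter pairs at a score of 5 or more, in percent, in each of the 8 score columns, for pairs of CpG-rich promoters (circles), 1 of each class (squares) and pairs of CpG-poor promoters (triangles). CpG-rich pairs range from 29.3% in DNMT_KO ESC to 52.8% in DNMT_KO EpiLC, and CpG-poor pairs from 37.9% to 47.7%.

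Loss of the methyltransferases or of the Tet enzymes was compared with the parent at each stage, without a test, since each group is 1 column. In ESC, the number of called pairs in the knock-out minus that in its parent was -1730 in the DNMT lines and -621 in the TET lines. In EpiLC it was 777 and 827. As a share of called contacts within 1 Mb, the knock-out minus parent difference was -1.27 and -1.43 percentage points in ESC and 0.638 and 0.216 in EpiLC, with the same signs among contacts scored in all columns and on quantile-normalised scores.

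A pair was counted as gained where the knock-out scored 5 or more and the parent under 3, and as lost in the reverse case. DNMT_KO gained 787 pairs in ESC (4.19% of pairs scored in both columns, against 5.75% of all contacts within 1 Mb) and lost 1609 (8.57%, against 7.14%). In EpiLC it gained 965 (4.97%, against 4.51%) and lost 720 (3.71%, against 4.37%). TET_KO gained 748 in ESC (3.88%, against 6.47%) and lost 996 (5.17%, against 4.94%), and in EpiLC it gained 1043 (5.42%, against 6.51%) and lost 858 (4.46%, against 5.31%). The same counts were made between the parents. In ESC, TET_WT against DNMT_WT gained 929 pairs (4.96%, against 6.51%) and lost 1214 (6.48%, against 7.18%). In EpiLC it gained 862 (4.44%, against 6.13%) and lost 916 (4.72%, against 4.42%). The 1609 pairs lost in DNMT_KO ESC lay above all of these, and the other knock-out counts, 720 to 1043, did not exceed 1214. Few pairs were gained or lost at both stages. DNMT_KO gained 25 and lost 40 at both, while 37 gained in ESC were lost in EpiLC and 61 lost in ESC were gained in EpiLC. TET_KO gained 87 and lost 56 at both, with 32 and 19 in opposite directions. Of the 87 pairs gained in TET_KO, 44 were called in at least 1 DNMT column, and of the 56 lost 35 were. These shares of all pairs, 0.428% gained and 0.276% lost in TET_KO and 0.123% gained and 0.197% lost in DNMT_KO, stood beside 0.589%, 0.273%, 0.127% and 0.158% of other contacts.

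Of the 4 largest TET_KO gains at both stages, 3 involved a single olfactory receptor gene on chromosome 13, Olfr263. Olfr263 with Zfp187, 319 kb apart, scored 7.96 in TET_KO ESC and 5.71 in TET_KO EpiLC, and at most 0.0686 in the other 6 columns. With Pgbd1, a gene derived from a transposase, it scored 7.89 and 5.84, and at most 1.42 elsewhere. With Mir1896 it scored 8.14 and 6.76, and at most 1.3 elsewhere. Olfr1369-ps1 with Mir1896 gave the largest gain, 10.2 and 9.08, against at most 0.296 elsewhere. Of the 6 listed partners of Olfr263, Zkscan3 (7.37 and 4.36) and Zscan12 (3.46 and 7.41) also had their highest scores in TET_KO. The other one, a small RNA copy, did not: it scored 5.69 in TET_KO ESC against 6.07 in TET_WT ESC, and 1.63 in TET_KO EpiLC, the lowest EpiLC column. In the same region Zkscan3 with Olfr1366 was lost in TET_KO, with 0.169 and 0.0959 against 10.7 and 10.1 in TET_WT, but DNMT_KO (0.244 and 0.804) and DNMT_WT EpiLC (0.45) were low too, and only DNMT_WT ESC (10.4) matched TET_WT.

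Other TET_KO gains at both stages were Pramel7 with Olfr1176 (5.50 and 9.09 in TET_KO, 0.413 and 0.00 in TET_WT) and Ahnak with AC132253.2 (5.63 and 10.8, against 0.00 and 1.38). For Pramel7 with Olfr1176 the DNMT lines lay between, at 0.00 to 4.18. Zfp868 had the most pairs gained at both stages, 5, and TET_WT was the low column for them, as with Pbx4, a homeobox cofactor gene: 0.809 and 2.61 in TET_WT, 6.59 and 11.98 in TET_KO, 3.97 and 5.85 in DNMT_WT and 1.63 and 5.99 in DNMT_KO. The largest TET_KO losses after this pair included Mall with Mertk, a receptor kinase (5.61 and 9.26 in TET_WT, 0.179 and 1.60 in TET_KO), Traf6, a signalling ubiquitin ligase, with Pamr1 (8.27 and 6.20, against 1.84 and 0.147), and Xrcc6, the Ku70 repair gene, with Cenpm (9.27 and 6.24, against 1.62 and 0.901). Another 2 of the 6 largest losses had a small RNA copy at an end. For Mall with Mertk, all 4 DNMT columns were under 1, so TET_WT was the column that stood apart.

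In DNMT_KO, the largest gain at both stages was Ccdc24 with Tie1, an endothelial receptor gene, at 11.0 and 5.27, against 0.851 and 0.00 in DNMT_WT, while the TET columns held 1.39 to 7.91. It was followed by AY761185 with Defb13 (6.84 and 5.59, against 0.00 and 0.83), both of a defensin array, Olfr1176 with Olfr1232, Asrgl1 with AC132253.1, Tbc1d9 with Ndufb7 and Tmem125 with Ermap. The largest loss was Rbm6, an RNA-binding gene, with Klhdc8b, at 0.0494 and 1.31 in DNMT_KO against 6.18 and 8.10 in DNMT_WT, and the TET columns held 1.61 to 4.40. Nme7 with AC133891.1, Chchd6 with Aldh1l1, a folate enzyme gene, Thtpa with Cideb, Tktl1 with Olfr1326-ps1 and Btnl9 with Olfr1386 came next. Of the 25 gained and 40 lost pairs, 2 gained and 1 lost were under 3 in all 4 TET columns.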

How the data were processed

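Promoter-capture Hi-C was made from 8 groups of 2 replicates. Per the submitters' processing notes, trimming used cutadapt 2.3 and Trim Galore 0.6.5, and the genome build was GRCm38. The sources used here give no aligner, no caller version and no account of how replicates were joined. The authors deposited 1 interaction score per group for each contact that reached 5 in at least 1 column, so depth is unknown and their number limits the precision. A pair listed from both promoters got the mean of its asinh scores. limma 3.58.1 (R 4.3.3) was fitted to all contacts within chromosomes that had all 8 scores, quantile-normalised, with the line as a block, and tested on simulated data. Lines, not separate cultures, are the replicates. The members and the gene lists were chosen with earlier results of these data known. Named pairs are the 10 largest rises and falls without overlap, the 10 highest by lowest score, the 6 largest gains and losses at both stages in each knock-out, the 8 promoters with most partners and, per gene list, up to 6 pairs past the test or else the 2 with the highest mean; others were chosen after their values were seen. Some named pairs are not reported here. Alternatives covered scaling, the block, thresholds, leaving out each line and the merging of directions.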

Additional observations from a re-analysis of the deposited data

Results flagged for a closer look

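The EpiLC scores of Pafah1b3 with Cxcl17 hold 1 column, TET_KO at 24.6, far from the other 3, with a gap of 0.879 of the range of the group. Of 44 groups of 4 columns examined, chance alone flags about 1 in 20.

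The knock-out minus parent difference in pairs called had opposite signs at the stages in both families. Averaged over the families, it was higher in EpiLC than in ESC by 1978 pairs, and for the share of called contacts by 1.78 percentage points. These differences between stages were not tested.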

How the results depend on the processing

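No paired analysis was possible because the score columns carry no replicate numbers, so that pairing by replicate could not be fitted. The limma fit and the sign-flip test paired the stages by line. The permutation tests of the number and share of called pairs did not use this pairing. The difference between stages in pairs called (366.8 as reported) was -114.8 on quantile-normalised scores and ranged from -124.3 to 711.3 when 1 line was left out, negative without DNMT_KO. The difference in share (0.138 percentage points) was -0.0113 at a threshold of 3, -0.0211 on quantile-normalised scores, -0.0963 among contacts scored in all columns, a setting chosen after seeing the data, and -0.396 to 0.628 without 1 line, negative without DNMT_KO. The stage difference relative to other contacts (-0.0095) was 0.0184 when other-end length was matched as well, also chosen after seeing the data, and -0.046 to 0.0248 without 1 line, positive without TET_WT. None of these passed a test. Risen and fallen pairs numbered 14 and 8 without the line block, 7 and 3 at a mean score of at least 3, 0 and 0 in the parental lines alone (513 and 871 at an unadjusted limma p under 0.05), and 0 to 1 and 0 to 0 without 1 line. The unadjusted counts have no count over all contacts beside them. Scaling by column means, no scaling, log2 scores and the higher of both directions left 35 to 65 risen and 19 to 34 fallen. With 7 in place of 5, gains were 132 and 177 in DNMT_KO (ESC, EpiLC) and 160 and 187 in TET_KO, and losses 361 and 127, and 178 and 184. The excess of promoter pairs over other contacts stayed positive in every setting run, all of them on contacts scored in every column. A contact is listed only where it reached 5 in some column and depth is unknown, which limits statements on low scores.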
